A study of Mus musculus with 2 samples.

Results

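The cells described here are those in which transcripts of the mitochondrial genome made up more than 5% of all transcripts counted, the limit above which the study's own filter drops a cell. They were chosen by that share alone, so the share and the levels of the mitochondrially encoded (mt-) genes are a description and not a finding. There were 86 such cells among 5838 in the deposited matrices, 58 of 2844 in mouse R1 and 28 of 2994 in mouse R2. The study also corrected for ambient RNA and looked for doublets, steps not taken here. The 86 cells therefore need not be exactly those it dropped. Both animals were untreated male C57BL/6J mice, labelled 4-5 weeks old, with postnatal day 36 given in the protocol, and no other condition was compared. For each animal the RPE sheets of the 2 eyes were combined and dissociated, calcein-AM-positive and DAPI-negative cells were sorted, and droplet-based 3′ RNA sequencing counted each captured molecule by its unique molecular identifier (UMI). As a check of the label RPE cells, Rpe65, the retinoid isomerase of the visual cycle, had a UMI in 57 of 58 and 27 of 28 of these cells and stood at 35.1 and 47.4 UMIs per 10000 outside mt- genes. The level alone does not separate RPE cells, because in all cells marked as blood, immune, fibroblast or endothelial it was about as high, 34.4 in R1 (13 cells) and 51.7 in R2 (9 cells), with a UMI in 7 and 6 of them. In those of them whose share of Ttr was under 5%, a choice that itself leaves out cells with much RPE RNA, it stood at 1.05 in R1 (9 cells, median 2996 UMIs) and 0 in R2 (3 cells, median 2968 UMIs). All 58 and all 28 cells held UMIs of at least 3 of 10 RPE genes, but so did 7 of those 9 and 1 of those 3 cells, so this mark does not separate them. Best1, the gene of an RPE chloride channel, was at 0 in the cells above the limit and had 7 UMIs in R1 and 11 in R2 over all cells. The barcodes of R1 and R2 coincided in 12 cases, none of which was a cell above the limit.

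The retinal pigment epithelium (RPE) is a pigmented monolayer between photoreceptors and choroid that regenerates the visual chromophore, takes up shed outer segments and moves ions, water and nutrients. Its cells are rich in mitochondria. The mitochondrial genome encodes subunits of the respiratory chain and of ATP synthase, and its polyadenylated messengers are captured by 3′ protocols together with nuclear ones. In droplet data the share of these messengers is commonly used as a measure of cell quality, because a cell whose membrane leaks can lose cytosolic RNA while mitochondria stay inside.

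The limit fell on a continuous slope. In R1, 324 cells exceeded 3%, 141 exceeded 4%, 58 exceeded 5%, 23 exceeded 6%, 7 exceeded 7.5% and none exceeded 10%. In R2, 147 cells exceeded 3%, 74 exceeded 4%, 28 exceeded 5%, 14 exceeded 6%, 5 exceeded 7.5% and 3 exceeded 10%. The median share was 5.67% in the 58 cells of R1, with a maximum of 9.74%, and 5.99% in the 28 cells of R2, with a maximum of 12.0%. The 3 cells of R1 just above the limit had 5.03%, 5.06% and 5.06% and the 3 just at or below it 5.00%, 4.98% and 4.97%. In R2 the corresponding cells had 5.02%, 5.06% and 5.20% above and 4.94%, 4.93% and 4.88% below. No gap separated the groups in either mouse.

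Cells above the limit were shallow. Total UMIs are the denominator of the share by which they were chosen, so their depth is partly set by the choice and is a description. Their median total was 2668.5 UMIs in R1 (range 2189 to 5383) and 3452.5 in R2 (range 2769 to 5323). Over all cells the medians were 8379.5 and 7963. The cells of each mouse were divided into 4 groups of nearly equal size by depth. Of the 58 cells in R1, 56 lay in the shallowest group, where they made up 7.88% of the cells (exact Clopper-Pearson 95% interval 6.00 to 10.1%), and 2 lay in the next. Of the 28 cells in R2, 21 lay in the shallowest group, or 2.80% of it (1.74 to 4.25%), and 7 in the next. None of the cells deeper than the median exceeded the limit in either mouse, and a count of 0 allows a share of up to 0.422% of the 711 cells in the deepest group of R1 and 0.401% of the 749 in R2. Among cells no deeper than the deepest cell above the limit, 58 of 801 in R1 (7.24%) and 28 of 1105 in R2 (2.53%) exceeded it. All intervals and limits of this kind cover counting error only.

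Depth was therefore matched in the comparisons of expression and equalised in that of genes per cell. Each cell above the limit was set beside the 5 unused cells of the same mouse at or under 5% whose total UMIs were nearest, which gave 290 matched cells in R1 (median 2722.5 UMIs) and 140 in R2 (median 3447.5 UMIs). The matched cells were not alike in the 2 mice. In R1 their mitochondrial share had a median of 2.50%, and 85 of 290 (29.3%) had under 0.5%, while such cells made up 6.75% of all cells of that mouse. In R2 the median was 1.31% and 3 of 140 matched cells (2.14%) had under 0.5%. Results are accordingly given for each mouse, and for the genes named as called between Ttr-high cells the text says which calls were lost without the matched cells under 0.5%.

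**Figure D1:**
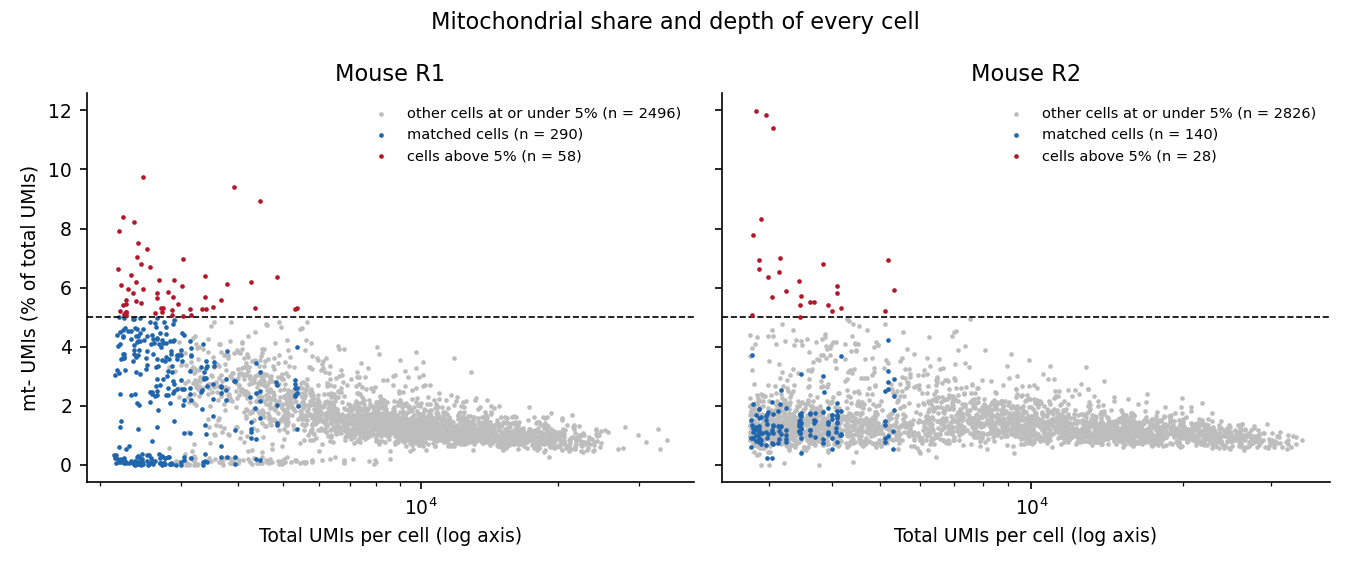
Share of mt- UMIs (y axis, % of total UMIs) against total UMIs per cell (x axis, log scale) for every cell of R1 (left) and R2 (right), with the 5% limit dashed. The 58 and 28 cells above the limit (red) lie at the shallow end, matched cells (blue) share their depth, and R1 has a band of cells near 0% mt, 192 under 0.5% against 22 in R2.

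When depth was equalised, the cells above the limit did not hold fewer genes. After every cell was thinned to 1500 UMIs outside mt- genes, the median was 694.5 genes per cell above the limit and 668.5 in matched cells of R1, and 666 and 610 in R2, with no cell too shallow to be used. Before thinning the medians were 999.5 and 972.5 genes outside mt- genes in R1 and 1020 and 989.5 in R2. The direction was the same in both mice, but 2 mice do not allow an exact test to pass 0.05. The smallest two-sided p of an exact permutation test of 2 against 2 is 0.333, and pairing within mice cannot lower it.

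The mitochondrial signal rested on mt-Cytb, mt-Nd4 and mt-Nd1. Among the 10295 mt- UMIs of the R1 cells, mt-Cytb, the cytochrome b of complex III, made up 39.4%, mt-Nd4 29.2% and mt-Nd1 20.8%, the latter both subunits of complex I. Among the 6509 mt- UMIs in R2 the same genes made up 39.7%, 23.6% and 26.1%. The matched cells showed nearly the same makeup, with 39.9%, 29.1% and 19.2% in R1 and 40.7%, 25.8% and 22.4% in R2. The share of mt- UMIs was thus higher with little shift between these genes. Per 10000 total UMIs, mt-Cytb stood at 239 above the limit and 89.3 in matched cells of R1, and at 260 and 59.4 in R2. mt-Nd4 stood at 178 against 65.2 in R1 and at 154 against 37.6 in R2, and mt-Nd1 at 126 against 43.1 and at 171 against 32.8. Each of these 3 genes had a UMI in every cell above the limit. mt-Nd2 followed at 33.3 and 35.3 per 10000, mt-Nd5 at 20.4 and 20.6, and mt-Co1, the catalytic subunit of cytochrome c oxidase, at 9.15 and 11.6.

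**Figure D2:**
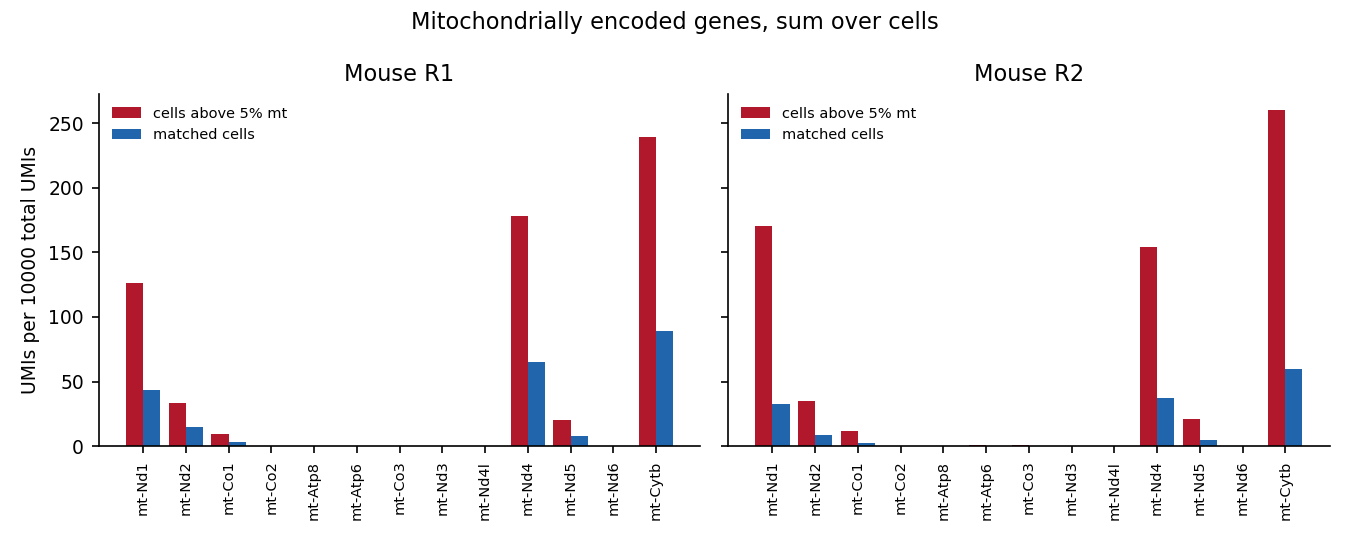
Levels of the 13 mt- genes (y axis, UMIs per 10000 total UMIs, summed over cells) in cells above 5% (red) and matched cells (blue) of R1 and R2. The signal rests on mt-Cytb, mt-Nd4 and mt-Nd1, and 7 of the 13 genes stay below 2 per 10000 in every group.

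The other 7 mt- genes were almost absent from the counts, and not only above the limit. Over all cells of R1 and R2, mt-Co2 had 75 and 101 UMIs, mt-Atp6 266 and 401, mt-Co3 246 and 318, mt-Nd3 7 and 3, mt-Nd6 574 and 255, and mt-Atp8 and mt-Nd4l none, whereas mt-Cytb had 139871 and 152119. The annotation of the same build (GRCm38, GENCODE M21) lists pseudogenes, nuclear copies of mitochondrial DNA, whose sequence these genes share. A stretch of chromosome 1, chr1:24611535-24615565, holds copies of mt-Nd4 (in part), mt-Nd4l, mt-Nd3, mt-Co3, mt-Atp6 and mt-Co2 side by side, and these pseudogenes are not among the 27998 genes counted. Of all runs of 40 bases in mt-Co2, 100% also occur in a transcript outside the mitochondrial genome, as do 99.5% for mt-Atp6, 99.9% for mt-Co3, 98.1% for mt-Nd3 and 98.8% for mt-Nd4l. For mt-Nd1 the share was 0% and for mt-Cytb 1.36%. In mt-Nd4 it was 62.5% over the whole gene but 0% over its last 300 bases, the end that a 3′ protocol reads. The last 60 bases of the 3 genes that carry the signal are shown beside those of mt-Co3 and mt-Co2, 5′ to 3′ on the + strand of GRCm38, with capitals for bases in a run of 40 that a transcript outside the mitochondrial genome shares.
mt-Cytb, chrM:15229-15288: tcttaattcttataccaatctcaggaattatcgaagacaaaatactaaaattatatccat
mt-Nd4, chrM:11485-11544: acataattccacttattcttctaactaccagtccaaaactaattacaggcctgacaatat
mt-Nd1, chrM:3648-3707: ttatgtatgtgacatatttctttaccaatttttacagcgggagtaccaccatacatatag
mt-Co3, chrM:9331-9390: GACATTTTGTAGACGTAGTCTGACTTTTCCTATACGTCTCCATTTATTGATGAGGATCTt
mt-Co2, chrM:7637-7696: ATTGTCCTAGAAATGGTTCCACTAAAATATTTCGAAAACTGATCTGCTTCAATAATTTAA
Not every gene followed this division. mt-Co1 had 5729 and 5939 UMIs although 100% of the 40-base runs in its last 300 bases are shared. mt-Nd6, which is encoded on the opposite strand, had few with 0% shared. mt-Atp8 had none with 2.42% shared, but only annotated transcripts were searched. Most of mt-Atp8 lies between mt-Co2 and mt-Atp6, and the sequence between their copies on chromosome 1 was not searched, so mt-Atp8 cannot be placed. Whether shared sequence accounts for the low counts was not tested. The 5% limit therefore acted on a share of which 3 genes gave 89.5% in the cells of R1 above it and 89.4% in those of R2.

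By identity the cells were nearly all rich in Ttr, the gene of transthyretin, which RPE secretes as a carrier of thyroxine and retinol. In R1, 52 of 58 cells (89.7%, 78.8 to 96.1%) had Ttr at or above 5% of UMIs outside mt- genes, against 259 of 290 matched cells (89.3%, 85.2 to 92.6%). In R2 the counts were 26 of 28 (92.9%, 76.5 to 99.1%) and 137 of 140 (97.9%, 93.9 to 99.6%). The median Ttr share was 9.63% above the limit and 11.1% in matched cells of R1, and 12.1% and 13.4% in R2, and the ranges overlapped. Of the cells above the limit, 4 in R1 and none in R2 lay between 4% and 6%, near the threshold. Ttr had a UMI in every cell of both matrices. The 13 cells of R1 marked as blood, immune, fibroblast or endothelial held 598 Ttr UMIs per 10000 and the 9 of R2 862, and the 9 and 3 of them under 5% Ttr, a choice that itself keeps the value low, held 71.7 and 36.7. The cells above the limit held 927 and 1190.

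**Figure D3:**
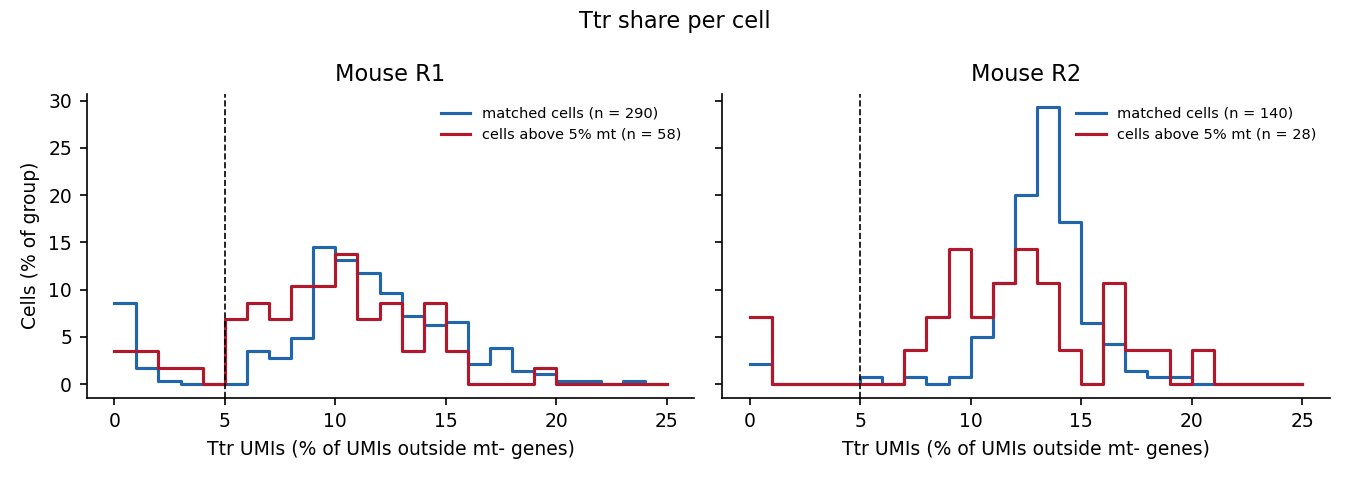
Distribution of the Ttr share per cell (x axis, % of UMIs outside mt- genes, bins of 1%) as the percentage of cells in each group (y axis) for cells above 5% mt (red) and matched cells (blue). Most cells of both groups lie above the dashed 5% line, 52 of 58 and 26 of 28 of those above the limit.

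The remaining 8 cells, 6 in R1 and 2 in R2, had Ttr below 5%. Of these, 7 carried 4 to 6 of the 8 marker genes of the Pax6/Dkk3 pigment cells with little Ttr, and their leading genes included Malat1, Apoe, Ptgds and Dct, the last encoding a melanin-forming enzyme. The cell with the most Mlana, a melanosome protein gene, had 32 UMIs of it, 45 of Dct, 6 of Pax6 and a Ttr share of 0.969% at 3390 total UMIs. A cell of R2 with 23 UMIs of Aldoc, which encodes a glycolytic aldolase, had 6 of Pax6, 11 of Mlana and a Ttr share of 0.645%. The eighth cell, in R1, had 3.88% Ttr, 11 UMIs of Rpe65, none of the Pax6/Dkk3 markers, and Ptgds and Cst3 as leading genes.

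Marked by 3 or more genes of the Pax6/Dkk3 list, whatever their Ttr, were 8 of 58 cells in R1 (13.8%, 6.15 to 25.4%) and 2 of 28 in R2 (7.14%, 0.877 to 23.5%), against 24 of 290 matched cells (8.28%, 5.37 to 12.1%) and 0 of 140, which allows up to 2.14%. The intervals overlapped in R1, and in R2 the lower bound lay under that limit. Read the other way, the limit removes 8 of the 76 cells so marked in R1 (10.5%, 4.66 to 19.7%) and 2 of 24 in R2 (8.33%, 1.03 to 27.0%), beside 52 of 2775 Ttr-high cells in R1 (1.87%, 1.40 to 2.45%) and 26 of 2973 in R2 (0.875%, 0.572 to 1.28%). Marked by 2 or more genes instead, the limit removes 10 of 273 cells in R1 (3.66%, 1.77 to 6.63%) and 3 of 125 in R2 (2.40%, 0.498 to 6.85%), so these shares depend on the mark. The cells marked by 3 or more genes were shallower, with medians of 3387.5 and 4282.5 UMIs, where Ttr-high cells had 8590 and 8012, and the part of depth in these shares was not tested.

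Pax6, a transcription factor gene of the early eye field at chr2:105668900-105697364, had 16 UMIs in 7 of the 58 cells of R1 and 6 UMIs in 1 of the 28 cells of R2, and 51 UMIs in 21 of 290 and 7 in 4 of 140 matched cells. Its edgeR log2 fold change over all cells was 1.07 ± 0.65 (SE from the edgeR test, adjusted p = 0.439). Mlana (chr19:29697824-29708634) stood at 8.17 UMIs per 10000 above the limit and 7.18 in matched cells of R1, and at 6.88 and 1.35 in R2. The groups were close in R1 and far apart in R2, and the summed test gave a log2 fold change of 0.97 ± 0.30 (adjusted p = 0.118).

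No cell above the limit was marked as another cell type of the eye by the lists for microglia or macrophages, MHC class II, fibroblasts, endothelium, pericytes, choroidal melanocytes, rods, cones, erythrocytes, Schwann cells or T and NK cells, which allows up to 5.17% of cells in R1 and 10.7% in R2 for each. One cell of R1 passed the Muller glia list, on which Apoe held 2366 of 2504 UMIs and Aqp4, Kcnj10, Gfap and Sox2 were at 0. Cd74, the invariant chain of MHC class II, had no UMI in the 58 and 28 cells, and Dcn, the fibroblast proteoglycan decorin, had none either. The matched cells held 157 UMIs of Cd74 in 2 cells of R1 and 1 UMI in R2, and 51 UMIs of Dcn in 1 cell of R1 and 107 in 7 cells of R2. For Dcn, 1 matched cell held all of it in R1 and 1 held 73 of the 107 in R2. Its direction rests on these cells and is a description, and no fold change is given. The whole microglia list summed to 43 UMIs in R1 and 21 in R2, of which Csf1r, which RPE cells also hold, gave 39 and 21. The fibroblast list summed to 1 and 0 UMIs, the rod list to 1 and 0, and the erythrocyte list to 3 and 0, while the matched cells of R1 held 5346 erythrocyte UMIs, 2576 of them of Hbb-bs. Hbb-bs lay in 4 of those 290 cells, 2 of the 290 were marked as erythrocytes, and the matched cells of R2 held 1 erythrocyte UMI.

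Expression outside the mt- genes was compared on UMIs summed over the cells of each group and mouse, giving 4 sums, by the quasi-likelihood method of edgeR, with a block for the mouse and p-values adjusted after Benjamini and Hochberg (threshold 0.05). Fold changes are above the limit over matched, on the log2 scale, with an SE derived from the edgeR test statistic. It is not the spread of a gene between the 2 mice. In a sum, fewer cells with a transcript and less of it per cell cannot be told apart. Over all 58 and 28 cells, 31 of 4397 genes were called (0.705%), 15 higher (0.341%) and 16 lower (0.364%), every one with the same direction in both mice, while DESeq2 called 6 (0.136%). No gene was called without TMM scaling or without the mouse block, and 5 were called without the matched cells under 0.5%. Among the lower genes were Gsn, the actin-severing gelsolin, and the chemokine gene Cxcl2, which passed the filter on low counts through the matched cells, so their direction is a description. Gsn had 67 UMIs in R1 and 287 in R2 among matched cells and none above the limit, with 48 of the 67 and 165 of the 287 in a single cell. Cxcl2 had 1 UMI above the limit in R1 and none in R2, and 53 and 56 in matched cells, of which 41 and 55 lay in a single cell. Without the matched cells under 0.5% Cxcl2 was not tested. Gsn was called there as well, which adds no support, because it again passed the filter through the matched cells. Fibroblast-marked cells were 1 of 290 and 2 of 140 in the same matched sets, and their part in these genes was not tested. When cells marked as another type were left out of both groups, 95 genes were called.

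The comparison within Ttr-high cells held fewer cells marked for another type. Such cells were 8 of 58 above the limit and 29 of 290 matched in R1, and 2 of 28 and 3 of 140 in R2, the Pax6/Dkk3 list included, against 3 of 52, 1 of 260, 0 of 26 and 1 of 130 here. Leaving out the remaining ones, with new matching, changed the calls from 87 to 31. The comparison set 52 cells of R1 beside 260 matched Ttr-high cells (median 2639.5 and 2727 UMIs) and 26 of R2 beside 130 (3452.5 and 3451 UMIs), over sums of 141036, 746890, 86925 and 458322 UMIs outside mt- genes. Of 4040 genes tested, 87 were called (2.15%), 41 higher (1.01%) and 46 lower (1.14%), and all 87 moved the same way in both mice. DESeq2 called 4 (0.099%) and a fit without the mouse block 36. Without TMM scaling, which moved the median log2 fold change of all genes from -0.03 to 0.11, 51 genes were higher and 20 lower. In R1, 83 of the 260 matched Ttr-high cells (31.9%) had under 0.5% mt- UMIs, and in R2 none of 130. Without these cells 13 genes were called, 11 of them among the 87, and the 86 genes of the 87 still tested kept their sign; the matched cells of R1 were then deeper, at a median of 3141.5 UMIs.

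Malat1, a long noncoding RNA that is retained in the nucleus (chr19:5795690-5802672), was the most abundant transcript that was higher. It made up 393 UMIs per 10000 above the limit and 245 in matched Ttr-high cells of R1, and 456 and 179 in R2. Single cells of R2 ranged from 0 to 1041 above the limit (median 447) and from 6.71 to 617 in matched cells (median 165), so the groups overlapped while their medians lay far apart. In R1 the medians were 351 and 240. Its log2 fold change was 0.87 ± 0.19 (adjusted p = 0.00164), and it was called in 13 of 15 alternatives. Without the matched cells under 0.5% it was 0.69 with an edgeR adjusted p = 0.38. In shallow Ttr-high cells of R1 under 1% mt- UMIs, Malat1 was at 43.0 per 10000.

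Of the list of 8 nuclear-retained noncoding RNAs, 3 were tested and all were positive, with 2 called higher, where 1.01% of all genes were. Besides Malat1, Kcnq1ot1, the antisense transcript of an imprinted locus, stood at 2.55 against 0.991 per 10000 in R1 and 2.07 against 0.589 in R2 (log2 fold change 1.41 ± 0.43, adjusted p = 0.0463). This call was lost in 10 of 15 alternatives, among them the one without the matched cells under 0.5% (log2 fold change 1.09, edgeR adjusted p = 0.413). Neat1, the scaffold of nuclear paraspeckles, stood at 1.99 against 1.11 and 0.690 against 0.305 (0.81 ± 0.55, adjusted p = 0.479). The same direction was seen in both mice for each of the 3. Gm42418 (chr17:39846958-39848788), a noncoding transcript with which the antisense gene AY036118 overlaps, rose from 8.72 to 17.1 per 10000 in R1 and from 3.29 to 15.0 in R2 (1.38 ± 0.22), and it was called in all 15 alternatives run for Ttr-high cells, at 1.29 without the matched cells under 0.5%. Because the strand setting of the counting is not given in the sources used here, its reads may include those of its partner. Gm42418 is not on the list of nuclear-retained RNAs, and which RNA its reads come from was not tested.

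Further higher genes were looked at singly. Serpine3, a serine protease inhibitor gene (chr14:62663667-62692243), had 128 UMIs above the limit and 129 in the larger matched set of R1, and 36 and 55 in R2 (2.00 ± 0.29). Its UMIs were held by 11 of 52 and 5 of 26 cells above the limit, and by 21 of 260 and 19 of 130 matched cells, so that most cells of either group had none. Slc7a5, a transporter of large neutral amino acids, had a UMI in 31 of 52 and 14 of 26 cells against 91 of 260 and 23 of 130, and stood at 4.89 against 2.21 per 10000 in R1 and 3.34 against 0.785 in R2 (1.39 ± 0.32, adjusted p = 0.00386). Slc4a5, a sodium bicarbonate cotransporter gene, rose by 1.00 on the log2 scale, Igfbp5, which encodes an IGF-binding protein, by 1.29, Plxnb2, a semaphorin receptor gene, by 1.03, and Col8a2, a collagen gene of basement membranes, by 0.65. Ccnd1, the gene of cyclin D1, rose by 0.93, but 33 of its 68 UMIs above the limit in R2 came from 1 cell. Without the matched cells under 0.5% Serpine3 remained called, at 1.33 in place of 2.00, and the other 6 genes did not. Their log2 fold changes and edgeR adjusted p-values were then 1.2 and 0.151 for Slc7a5, 0.88 and 0.217 for Slc4a5, 1.04 and 0.174 for Igfbp5, 0.83 and 0.413 for Plxnb2, 0.44 and 0.617 for Col8a2, and 0.90 and 0.296 for Ccnd1. Prpf38b, a splicing factor gene, rose by 1.92, with 18 of 52 and 10 of 26 cells holding a UMI against 41 of 260 and 13 of 130, and it remained called in that setting.

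The largest positive fold changes belonged to rarely counted genes. The 10 genes named by size were BC068281, Rcor1, Rc3h2, Cul7, Txnrd3, Kin, Mapk15, C77080, Gpd2 and Hivep1, with log2 fold changes from 4.69 down to 2.47 and 21 to 78 UMIs over the 4 sums. For BC068281, 13 of the 16 UMIs in R1 and all 3 in R2 lay in 1 cell each, and for Kin all 10 in R1 did. Of the 87 called genes, 24 of the 41 higher and 2 of the 46 lower had fewer than 100 UMIs, and in 21 at least 50% of the UMIs of a sum came from 1 cell, counting sums of at least 4 UMIs. A gene counted this rarely passes the filter on low counts mainly through the group in which it is high, so its direction is a description. Without that filter 5 genes were higher and 54 lower. Of the 10 named here, BC068281 and Rcor1 were also called without the matched cells under 0.5%. This adds no support, because the same few cells above the limit hold their UMIs.

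Genes that were lower were counted more often and in more cells. Rgr, the retinal G protein-coupled receptor that takes part in chromophore regeneration (chr14:37034909-37048964), had a UMI in every cell of both Ttr-high groups. It stood at 91.5 UMIs per 10000 above the limit and 150 in matched cells of R1, and at 104 and 252 in R2. Single cells of R2 spanned 46.7 to 193 above the limit, with a median of 99.7, and 59.7 to 437 in matched cells, with a median of 263. In R1 the medians were 83.9 and 122. The log2 fold change was -1.13 ± 0.19 (adjusted p = 1.89e-06), and it was called in all 15 alternatives, at -0.99 without the matched cells under 0.5%. Most cells of R2 above the limit thus lay below most matched cells in Rgr, with a wider overlap in R1.

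Of the 10 genes of the visual cycle list, all tested, 2 were positive and 8 negative, with a median of -0.31 against -0.03 over all genes. Without TMM scaling 4 were positive and 6 negative. The ratio of the sums within a mouse, which has no TMM scaling, had a median over the list of -0.11 in R1 and -0.17 in R2, beside 0.097 and 0.18 over all genes. Rgr was the 1 called lower, where 1.14% of all genes were, and no test compared it with the other genes. Rpe65 stood at 38.4 against 47.1 per 10000 in R1 and 50.6 against 54.6 in R2 (-0.35 ± 0.18, adjusted p = 0.331). Rdh5, an 11-cis-retinol dehydrogenase gene, stood at 68.2 against 75.8 and 60.4 against 82.8 (-0.44 ± 0.18, adjusted p = 0.184). These values lay on the same side in both mice without passing the threshold.

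Sostdc1, a secreted antagonist of BMP and Wnt ligands (chr12:36314139-36318452), was called lower on the secreted protein list, 1 of 13 tested, where 1.14% of all genes were. It stood at 3.05 against 5.44 UMIs per 10000 in R1 and 1.84 against 8.81 in R2 (-1.57 ± 0.27, adjusted p = 7.92e-06), with a UMI in 20 of 52 and 8 of 26 cells against 147 of 260 and 108 of 130. Ptgds, a prostaglandin D synthase gene, stood at 520 against 553 and 452 against 593 (-0.38 ± 0.20, adjusted p = 0.308), and Cst3, the gene of cystatin C, at 321 against 398 and 345 against 461 (-0.51 ± 0.19, adjusted p = 0.137).

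Other lower genes are given one by one. Ube2d3, a ubiquitin-conjugating enzyme gene, and Rnf13 and Rnf5, genes of ubiquitin ligases, had log2 fold changes of -1.75, -1.60 and -1.58. Sptssa, a subunit gene of serine palmitoyltransferase, had -1.66. Ybx1, which encodes a protein that binds messenger RNA, stood at 2.20 against 4.51 per 10000 in R1 and 1.04 against 5.02 in R2 (-1.64 ± 0.32, adjusted p = 0.000136). Psmd5, a proteasome assembly factor gene, and Arf6, a small GTPase gene, had no UMI above the limit and 33 and 20 or 32 and 19 in the matched sums, through which alone they passed the filter on low counts. Their values are therefore a description. Of these genes, Rnf13 and Ybx1 remained called without the matched cells under 0.5%, together with Rgr, Sostdc1 and Atp5f1 among the lower ones, while Ube2d3, Rnf5 and Sptssa, at -1.60, -1.48 and -1.53, and Arf6 did not pass and Psmd5 was not tested there.

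Nuclear genes for mitochondrial proteins were taken by list. Of 75 tested genes of nuclear oxidative phosphorylation, 7 were positive and 68 negative, with a median log2 fold change of -0.34 beside -0.03 over all genes. Without TMM scaling 21 were positive and 54 negative, and the median ratio within a mouse was -0.24 in R1 and -0.14 in R2. A gene was called in each direction, 2 of 75 where 2.15% of all genes were called. Atp5f1, a subunit gene of ATP synthase, stood at 2.84 against 5.96 per 10000 in R1 and 3.11 against 7.85 in R2 (-1.33 ± 0.27, adjusted p = 0.000265). Cox8b, a cytochrome c oxidase subunit gene, went the other way, at 20.7 against 12.8 and 7.36 against 3.47 (0.72 ± 0.22, adjusted p = 0.0433), a call that was lost in 9 of 15 alternatives, among them the one without the matched cells under 0.5% (0.55, adjusted p = 0.53). Cox8a and Ndufa4 had -0.27 and -0.42 with adjusted p-values of 0.487 and 0.246. Of 56 mitochondrial ribosomal protein genes, 18 were positive and 38 negative (median -0.51, with ratios of -0.18 in R1 and -0.41 in R2), and Mrpl20 was called at -1.10, 1 of 56 where 1.14% of all genes were lower, a call that was lost without the matched cells under 0.5% (-0.995, edgeR adjusted p = 0.385). The list for mitochondrial DNA expression held no call in 7 of 16 genes tested, of which 5 were positive and 2 negative (median 0.56, and 0.63 in R1 and 0.81 in R2 for the log2 ratio). Its most counted gene, Slirp, had -0.43, with Ppargc1a at -0.08, Ssbp1 at 0.16 and Tufm at 0.70. The list for mitochondrial quality control held no call in 8 of 12, of which 2 were positive and 6 negative (median -0.32, with ratios of -0.24 in R1 and 0.21 in R2, which differ in sign), with Hspe1 at -0.49 and Pink1 at -0.14.

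The lists of stress and death genes held no call in Ttr-high cells above the limit, where 2.15% of all genes were called. None of the 2 tested immediate-early genes of 16, the 8 heat shock genes of 10, the 7 unfolded protein and stress response genes of 12, or the 2 apoptosis and p53 genes of 13 passed the threshold with edgeR. Hspa8, a constitutive chaperone gene, stood at 15.0 against 12.7 per 10000 in R1 and 10.2 against 6.81 in R2 (0.26 ± 0.21, adjusted p = 0.573). Hspa5, the chaperone BiP of the endoplasmic reticulum, stood at 4.04 against 4.28 in R1 and 0.345 against 3.47 in R2 (-1.04 ± 0.32, adjusted p = 0.0513), close in R1 and far apart in R2. Bax, a pro-apoptotic gene, had 0.40 ± 0.42 (adjusted p = 0.687). Most genes of these lists were too rarely counted to be tested, and a difference was not detectable for them at this depth.

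Among antioxidant genes, 2 of 12 tested were lower, where 1.14% of all genes were, and none higher, or 1 without TMM scaling. Gpx4, the glutathione peroxidase that reduces lipid peroxides, stood at 10.6 against 19.5 per 10000 in R1 and 13.8 against 20.9 in R2 (-0.88 ± 0.20, adjusted p = 0.00278), and the peroxiredoxin gene Prdx1 at 7.52 against 11.7 and 8.63 against 15.4 (-0.87 ± 0.21, adjusted p = 0.00835). The metallothionein genes Mt1 and Mt2 had 0.26 ± 0.19 (adjusted p = 0.506) and 0.56 ± 0.18 (adjusted p = 0.0727), higher in both mice without passing. Kcnj13, the inwardly rectifying potassium channel of the apical RPE membrane, was the 1 called gene of 8 tested for epithelial transport and junctions (-0.82 ± 0.22, adjusted p = 0.021). It went against most of its list, of which 6 were positive and 2 negative (median 0.30, with ratios of 0.31 in R1 and 0.56 in R2). The calls of Gpx4, Prdx1 and Kcnj13 were lost without the matched cells under 0.5%, at log2 fold changes of -0.73, -0.75 and -0.70 and edgeR adjusted p = 0.259, 0.282 and 0.354. Of 12 glycolysis genes, 11 lysosome genes and 47 cytosolic ribosomal protein genes tested, none was called in either direction, with medians of -0.32, -0.23 and -0.49. The ratios within a mouse had medians of -0.13, -0.076 and -0.25 in R1 and -0.21, -0.20 and -0.37 in R2. The largest glycolysis gene by UMIs, Aldoa, had -0.40 ± 0.19 (adjusted p = 0.278), the largest lysosome gene, Cd63, -0.47 ± 0.19 (adjusted p = 0.169) and the largest ribosomal gene, Rpl41, -0.26 ± 0.20 (adjusted p = 0.56). Of 11 pigment synthesis genes tested, 8 were positive and 3 negative (median 0.43, with ratios of 0.38 in R1 and 0.40 in R2) and none was called, or 1 higher without TMM scaling, with Dct at 0.43 ± 0.21, Tyr, the gene of tyrosinase, at 0.64 ± 0.31 and Slc24a5, a melanosomal exchanger gene, at -0.56 ± 0.39.

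For some genes the levels also differed among cells under 5%. Ttr-high cells with as many UMIs as those above the limit were divided by their share into steps of 1%. In R2 the sum of Rgr went from 274 UMIs per 10000 under 1% (234 cells) through 261, 211, 127 and 114 to 104 above 5% (26 cells), and that of Malat1 from 156 through 162, 204, 347 and 401 to 456. In R1, Rgr went from 248 (166 cells) through 166, 134, 112 and 104 to 91.5 (52 cells), and Malat1 from 43.0 through 205, 262, 322 and 387 to 393. For both genes the 6 steps followed each other in one direction in each mouse. The genes given by step had been called between the Ttr-high groups. The steps hold all 52 and 26 cells above the limit and 250 of the 260 and 127 of the 130 matched cells. They restate that comparison in part and are no independent support. Gm42418 rose from 3.75 to 17.1 in R1 and from 2.39 to 15.0 in R2, both at every step. Ybx1 fell at every step, from 6.81 to 2.20 in R1 and from 5.93 to 1.04 in R2. Gpx4 fell at every step of R1, from 26.2 to 10.6, and in R2 from 22.6 to 12.3 between 4% and 5%, with 13.8 above 5%. Serpine3, Slc7a5, Cox8b, Kcnj13 and Sostdc1 did not follow every step, and Rnf13 did so in R2 only. From under 1% to above 5% each of them differed in the direction of its call in both mice. Sostdc1 went from 9.20 to 3.05 in R1, after 2.82 between 4% and 5%, and from 8.08 to 1.84 in R2. Rnf13 went from 9.78 to 3.05 and from 8.05 to 1.73. Slc7a5 went from 0.778 to 4.89 in R1 and from 0.703 to 3.34 in R2. Cox8b went from 5.84 to 20.7 and from 3.10 to 7.36, and Kcnj13 from 16.4 to 6.74 and from 13.1 to 7.94. In R1, Serpine3 stood at 0.793 between 4% and 5% and 9.08 above 5%, Slc7a5 at 2.33 and 4.89 after 3.26 between 3% and 4%, Cox8b at 14.8 and 20.7 after 20.3, and Kcnj13 at 10.1 and 6.74 after 9.64. In R2, Cox8b stood at 11.5 between 4% and 5% and 7.36 above 5%. The steps differed in median depth, 2639.5 to 4567 UMIs in R1 and 3452.5 to 4005.5 in R2, and the part of depth was not tested.

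**Figure D4:**
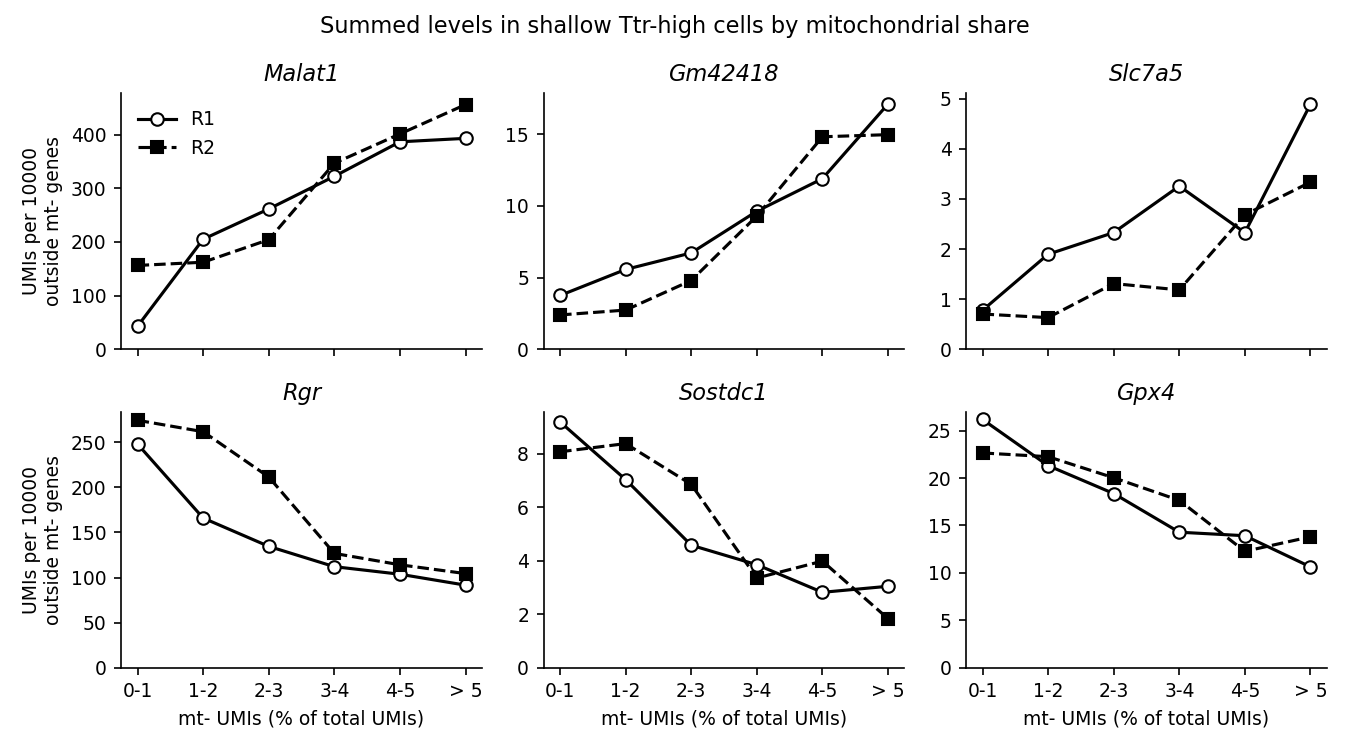
Levels of 6 genes (y axis, UMIs per 10000 outside mt- genes, summed over cells) in Ttr-high cells within the depth range of those above the limit, by the share of mt- UMIs (x axis, %) in R1 (open circles) and R2 (filled squares). Malat1, Gm42418 and Slc7a5 are highest and Rgr, Sostdc1 and Gpx4 at or near their lowest above 5%, with Rgr at 91.5 and 104.

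Cells that pass the limit but lie near it were compared in the same way, after these steps had been seen. Ttr-high cells of 3% to 5%, 137 in R1 and 100 in R2, were set beside 274 and 200 matched Ttr-high cells at or under 3%. None of these cells was in the 2 comparisons above the limit, but 98 and 66 of the former and 196 and 132 of the latter were in the steps, so the comparison restates them for these genes and is no independent support. Of 6815 genes, 403 were called (5.91%), 173 higher (2.54%) and 230 lower (3.37%), and DESeq2 called 51 (0.748%). The calls fell to 53 without TMM scaling (27 higher and 26 lower), to 72 without the mouse block and to 0 without the filter on low counts. Malat1 had 0.69, Gm42418 1.00, Serpine3 1.85 and Cox8b 0.93, while Rgr had -0.84, Sostdc1 -1.05 and Rnf13 -0.78. Of the 87 genes called above the limit, 82 were tested here and 49 were called, which is 59.8% of those 82 and 12.2% of the 403. All 49 had the same direction, 13 higher and 36 lower. The rarely counted Kin and Mapk15, with -0.40 and -1.51, did not pass. Of the visual cycle list 6 of 10 genes were lower here, with Rpe65 at -0.27 (edgeR adjusted p = 0.00557), Rdh5 at -0.26 (0.00305) and Rrh, an opsin gene of the RPE, at -0.80. Without TMM scaling 2 of the 10 were lower, and Rpe65 and Rdh5 did not pass. Other lists also held lower genes, where 3.37% of all genes were lower. These were 7 of 13 tested secreted protein genes, with 1 higher, 5 of 12 lysosome genes and 4 of 12 glycolysis genes. The 7 include Ttr, by which the cells were chosen, so its call is not a result. Of 77 nuclear oxidative phosphorylation genes, 27 were positive and 50 negative (median -0.13), 1 was called higher and 10 lower. Without TMM scaling 35 were positive and 42 negative, 1 was called, as higher, and the median ratio within a mouse was -0.0030 in R1 and 0.0066 in R2, beside 0.086 and 0.12 over all genes. Mt1 and Mt2 were higher at 0.36 and 0.47, as were the heat shock gene Hspa1a at 0.60 and Atf4, a transcription factor gene of the stress response, at 0.87, while Hspa5 was lower at -0.95. The calls of Hspa1a and Atf4 were lost without TMM scaling. Above the limit Hspa1a lay on the other side without passing, at -0.58 ± 0.32 (edgeR adjusted p = 0.363).

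Lower and higher genes differed in transcript length. By the longest annotated transcript, known for 4037 of 4040 genes, the 41 higher genes had a median of 4797 bases, the 46 lower genes 1767.5 and all tested genes 3013. When the tested genes were divided by length into 5 groups of nearly equal size, the median log2 fold change went from -0.39 in the shortest group (360 to 1649 bases) through -0.23, -0.03 and 0.26 to 0.51 in the longest (from 4923 bases). The shortest group held 22 of the 46 lower and 3 of the 41 higher genes, the longest 1 and 20, and 13 of those 20 lay below the median of UMIs. In R2 alone, where no matched Ttr-high cell was under 0.5%, the medians of the log2 ratio went from -0.33 to 0.96, and in R1 from -0.18 to 0.50. Long genes were also counted less often, at a median of 67 against 154 UMIs. Among genes at or above the median of UMIs the medians went from -0.43 to 0.25, with 21 lower and 2 higher genes in the shortest group and 1 and 7 in the longest, and the part of UMI counts was not tested. Between cells of 3% to 5% and their matched cells they went from -0.21 to 0.37. The genes of these groups are not independent replicates, and the values are a description.

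**Figure D5:**
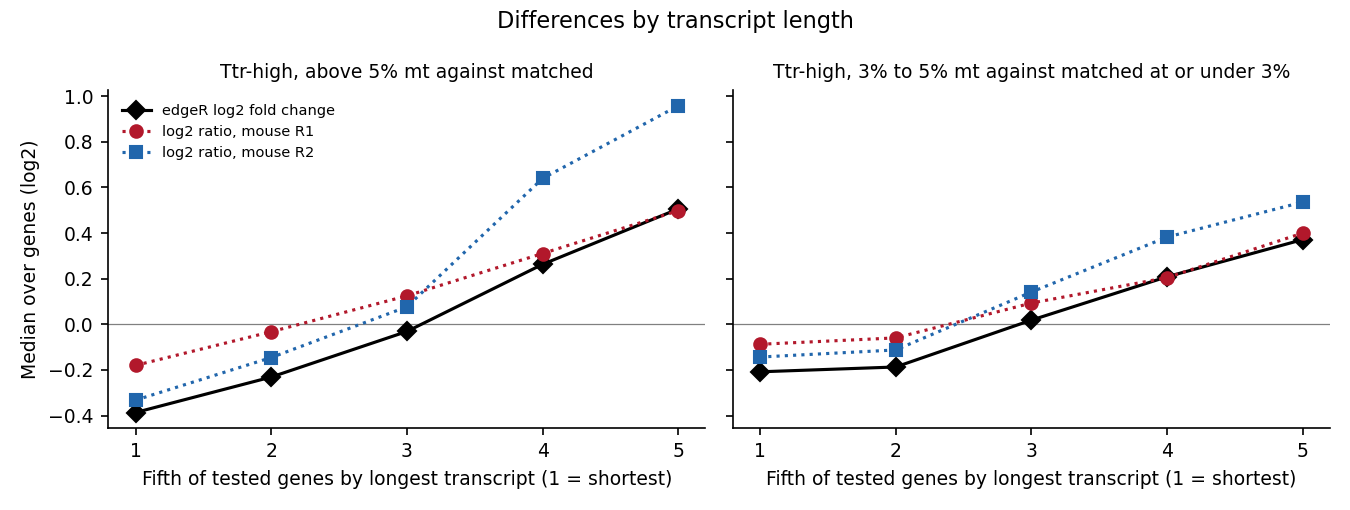
Median over genes (y axis, log2) of the edgeR fold change (black) and of the ratio within R1 (red) and R2 (blue), by 5 groups of tested genes ordered by longest transcript (x axis), for Ttr-high cells above 5% against matched cells (left) and of 3% to 5% against matched cells at or under 3% (right). The medians climb from the shortest to the longest group in both comparisons, from -0.39 to 0.51 on the left.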

How the data were processed

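UMI counts per gene and cell of 2 mice were used as the authors deposited them, whole numbers without normalization, before removal of ambient RNA, doublets or cells of low quality. According to the submitters' processing notes, bcl2fastq 2.20.0.422 and Cell Ranger 1.2.0 were used with GRCm38 (mm10). The labels and the paper name different versions of the 10x chemistry. R1 held 26034378 and R2 29732969 UMIs over 27998 genes, of which 27645 (98.7%) matched GENCODE M21 identifiers. For 65 symbols listed more than once, the first row was used in lists. No doublet caller was run. SoupX was not used.

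A cell was marked for a type when 3 or more genes of a list had a UMI. Ttr-high meant at least 5%, Ttr-low under 2% of UMIs outside mt- genes. Cells above 5% mt- UMIs were matched, in falling order of depth, to the 5 nearest unused cells by log total UMIs (2 in the comparison of 3% to 5%). Genes per cell were thinned with random seed 1. Sums without mt- genes were tested with edgeR 4.0.16 in R 4.3.3 (filterByExpr, TMM, quasi-likelihood, Benjamini-Hochberg) after the code had been tested on simulated data. Both sums of a mouse come from the same animal, so the mouse was a block. Replication was 2 mice. With so few sums, edgeR takes the variance largely from information shared over the tested genes. The SE and p-values therefore do not measure the spread of a gene between these mice alone, and say little about other animals. DESeq2 1.42.0 was an alternative. Sequences, positions and transcript lengths came from GENCODE M21, of the authors' build.

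Named were Ttr, Mlana, Pax6, Cd74, Dcn, all mt- genes, up to 4 genes per list (called ones first, then by UMIs) and, per comparison, the 10 largest called changes in each direction with at least 20 UMIs and the same direction in both mice. Slc4a5, Igfbp5, Plxnb2, Col8a2, Ccnd1, Slc7a5, Prpf38b, Gm42418 and Serpine3 in Ttr-high cells, Gsn and Cxcl2, and Rrh, Hspa1a and Atf4 in cells of 3% to 5%, were singled out partly after their values were seen. Members, lists and rules were chosen with earlier results of these data known. The comparison of 3% to 5%, and the settings without matched cells under 0.5%, without cells marked for another type and with Ttr-high at 3%, were added after the data had been seen. A few genes that this rule names are not reported here.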

Additional observations from a re-analysis of the deposited data

How the results depend on the processing

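Counts of called genes depended strongly on the setting. Under every alternative fit that was run, each of the 31, 87 and 403 called genes that was still tested kept its sign. Fewer such fits were run for the 403, of which 401 had the same direction in both mice. For all cells above the limit the 31 calls became 0 without TMM and 0 without a replicate block (559 and 676 genes had an unadjusted p under 0.05), 6 with DESeq2, 66 without a filter on low counts, 73 with mt- UMIs in the library sizes, 57 when matched on UMIs outside mt- genes, 433 unmatched, 10 with 1 matched cell, 329 at a limit of 4%, 80 without cells under 500 genes, 95 without cells marked for another type and 5 without matched cells under 0.5%. Within Ttr-high cells the 87 calls became 36 without the replicate block, 4 with DESeq2, 48 with mt- UMIs in the library sizes, 14 when matched on UMIs outside mt- genes, 354 unmatched, 14 with 1 matched cell, 200 at 4%, 31 without cells marked for another type, 41 with Ttr-high at 3% and 13 without matched cells under 0.5%. The 403 calls of the comparison of 3% to 5% became 53 without TMM, 0 without a filter (1070 genes had an unadjusted p under 0.05; DESeq2 called 51 of the filtered genes) and 72 without the replicate block. The unmatched cells were deeper and the limit of 4% took in more cells; for the other settings the cause was not tested. Within Ttr-high cells higher genes were 47.1% of the calls, but 71.8% without TMM, 8.47% without a filter, 29.3% with 10 matched cells and 5.37% unmatched. For genes named singly, 1495 values were classed as the same, 247 lost the call and 49 gained one. Some genes that were not called changed direction with 1 mouse left out. In Ttr-high cells Sox10, at -0.29 in the fit, was 0.54 in R1 alone, and Aldoc, at 0.74, was -0.061 in R2 alone. At a limit of 10% R1 had no cell, so no test could be fitted, and the 3 cells of R2 were 100% Ttr-high and 0% marked by the Pax6/Dkk3 list. With 2 instead of 3 genes for a mark, the shares of cells above the limit marked by the Pax6/Dkk3, microglia and fibroblast lists moved within their intervals, but the Muller glia list marked 84.5% in R1 and 89.3% in R2 and pigment synthesis 94.8% and 85.7%. Of all cells at or under the limit, the Pax6/Dkk3 list then marked 9.44% in place of 2.44% in R1 and 4.11% in place of 0.742% in R2, and the microglia list 1.79% in place of 0.144% and 0.641% in place of 0.101%. Ttr-high at 3% and thinning to 1000 UMIs moved their values within the interval or the spread between mice. Leaving out either mouse leaves no replicate, and no named gene called above the limit changed sign in the mouse that remained. This adds no support, because all of the 31 and 87 calls had the same direction in both mice.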
